A study of Mus musculus with 12 samples.

Results

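The 9 genes described here encode transcription factors of the exhausted T cell state, measured in tumour CD8+ T cells: Nr4a1, Nr4a2, Nr4a3, Tox, Tox2, Nfatc1, Nfatc2, Irf4 and Batf. They were taken by symbol from a count table of 56941 genes, each matched 1 row, and all 9 were among the 18657 genes that passed the expression filter. Bulk RNA sequencing was done on viable (DAPI-negative) CD45.2+ CD8+ cells sorted from tumours of Panc02, a mouse pancreatic adenocarcinoma cell line, as cells with or without surface asialo-GM1 (asGM1), a glycosphingolipid. The questions were what distinguishes the asGM1-positive cells and how either population changes when PD-1, an inhibitory receptor of T cells, is blocked. The 4 groups were asGM1-positive cells under anti-PD-1, asGM1-negative cells under anti-PD-1, asGM1-positive cells under isotype control antibody and asGM1-negative cells under isotype control antibody, with 3 libraries each. All 12 libraries came from wild type C57BL/6J mice bearing the same tumour, and the labels give no dose, time or age. The labels do not say that replicates were separate mice, so every p-value rests on the spread among libraries, some of which may be technical.

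When the T cell receptor is engaged, calcium enters the cell and the phosphatase calcineurin sends NFAT proteins into the nucleus. NFAT acting with AP-1 partners turns on effector genes, while NFAT with little AP-1 turns on the NR4A orphan nuclear receptors and, under lasting antigen exposure, TOX, and these factors drive inhibitory receptor expression in exhausted T cells. IRF4 and BATF rise with receptor signalling and bind DNA together at sites that combine an IRF and an AP-1 motif.

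Library totals ran from 58.1 to 73.2 M counts, and levels below are in CPM, counts scaled to a library of 1 M counts (M for mega) and by each library's TMM factor. Cd8a and Cd3e, which mark CD8+ T cells, stood at 1591 to 2581 CPM and 1018 to 1300 CPM over the 12 libraries. RNA of other cells was measured in the same libraries. The summed level of 11 macrophage and monocyte markers was 183 to 320 CPM in anti-PD-1 asGM1-positive, 76.7 to 117 CPM in anti-PD-1 asGM1-negative, 219 to 312 CPM in isotype asGM1-positive and 72.4 to 84.4 CPM in isotype asGM1-negative libraries. The summed level of 5 markers of CD4 and regulatory T cells was 53.8 to 66.2, 94.8 to 159.7, 60.7 to 66.1 and 95.2 to 134 CPM in the same order of groups. The sum of 7 B and plasma cell markers was 1.32 to 2.42, 4.22 to 7.75, 2.05 to 3.33 and 9.18 to 12.05 CPM in that order, with Ms4a1 at 0 in all 12 libraries. For 9 tumour epithelium and fibroblast markers the sum was 3.34 to 6.52, 2.96 to 5.66, 8.13 to 27.9 and 4.34 to 9.74 CPM, with Krt19 at 0 in all 12 libraries. In bulk RNA, a gene's lower level in each cell and a smaller share of cells that express it cannot be told apart.

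The promoters of the NR4A genes are shown because all 3 of these genes rose under anti-PD-1 in asGM1-positive cells, as described below. Tox2 and Irf4 rose there too, and Nr4a3 did not pass in asGM1-negative cells. Each sequence is the 250 bases before the RefSeq transcription start, on the gene's strand, in build GRCm38.p6, with the CRE core in capitals. The CRE core TGACG, read on either strand (CGTCA on the other), is the shorter form of the cAMP response element TGACGTCA that CREB and ATF factors recognise.
Nr4a1, chr15:101266596-101266845, plus strand: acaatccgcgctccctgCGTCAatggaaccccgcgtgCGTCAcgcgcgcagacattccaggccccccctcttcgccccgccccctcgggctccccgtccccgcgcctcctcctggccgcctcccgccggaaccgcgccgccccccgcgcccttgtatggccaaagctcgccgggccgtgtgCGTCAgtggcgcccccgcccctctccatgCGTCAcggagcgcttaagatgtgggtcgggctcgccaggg
Nr4a2, chr2:57124004-57124253, minus strand: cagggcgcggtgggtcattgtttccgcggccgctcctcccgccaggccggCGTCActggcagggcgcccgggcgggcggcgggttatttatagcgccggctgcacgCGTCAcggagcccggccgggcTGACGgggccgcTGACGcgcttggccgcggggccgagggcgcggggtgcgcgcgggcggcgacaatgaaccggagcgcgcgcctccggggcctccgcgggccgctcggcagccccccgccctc
Nr4a3, chr4:48045055-48045304, plus strand: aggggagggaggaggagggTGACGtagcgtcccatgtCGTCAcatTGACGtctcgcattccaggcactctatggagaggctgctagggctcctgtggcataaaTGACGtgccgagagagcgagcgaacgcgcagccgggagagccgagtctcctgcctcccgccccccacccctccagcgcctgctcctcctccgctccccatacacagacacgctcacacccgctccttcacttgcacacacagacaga

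Each of the 3 windows held 4 CRE cores. They began 233, 213, 69 and 40 bases before the start in Nr4a1, 200, 144, 123 and 111 bases before it in Nr4a2, and 231, 213, 205 and 147 bases before it in Nr4a3. Of 32851 RefSeq promoter windows of the same length, 17.8% held at least 1 such core and 45 windows (0.137%) held at least 4, counting both strands, so that a full TGACGTCA counts as 2 cores. No full TGACGTCA (in 1.55% of all windows), no AP-1 motif TGANTCA (6.75%) and no NBRE AAAGGTCA (1.34%), the element to which NR4A receptors bind, was found in any of the 3 windows. The NFAT core GGAAA, present in 55.6% of all windows, occurred once, 230 bases before the start of Nr4a2. Of the members outside the NR4A family whose windows were read, Batf held 1 CRE core, 1 of 5 Tox2 windows held 1, and the windows of Irf4 and Nfatc2 held none. These matches describe letters and are not evidence of binding.

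Under anti-PD-1, the NR4A receptor genes, Tox2 and Irf4 were higher than under isotype, while Tox, Nfatc1, Nfatc2 and Batf did not pass the test. In asGM1-positive cells 5 of 9 members rose (Tox2, Nr4a1, Nr4a2, Nr4a3 and Irf4) and 0 fell at an edgeR adjusted p under 0.05, where 3.72% of all genes tested rose. All 3 anti-PD-1 libraries lay above all 3 isotype libraries for these 5 genes, which held for 11.8% of all genes. In asGM1-negative cells 2 of 9 members rose (Nr4a1 and Nr4a2) and 0 fell, where 4.11% of all genes rose, and 6 of 9 members (the same 5 and Batf) had every anti-PD-1 library above every isotype library, beside 14.5% of all genes. Averaged over both populations, 5 of 9 rose, the same 5 as in asGM1-positive cells, where 9.12% of all genes rose. For 4 of them (all but Nr4a3) the 6 anti-PD-1 libraries lay above the 6 isotype libraries, beside 4.15% of all genes. The median log2 fold change of the 9 genes was 0.65 in asGM1-positive and 0.48 in asGM1-negative cells, beside -0.01 over all genes tested in both. The 9 genes were chosen with earlier results of these data known, so these shares and medians are descriptions and not a test of the set. The values by library are plotted for all 9 genes.

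**Figure D1:**
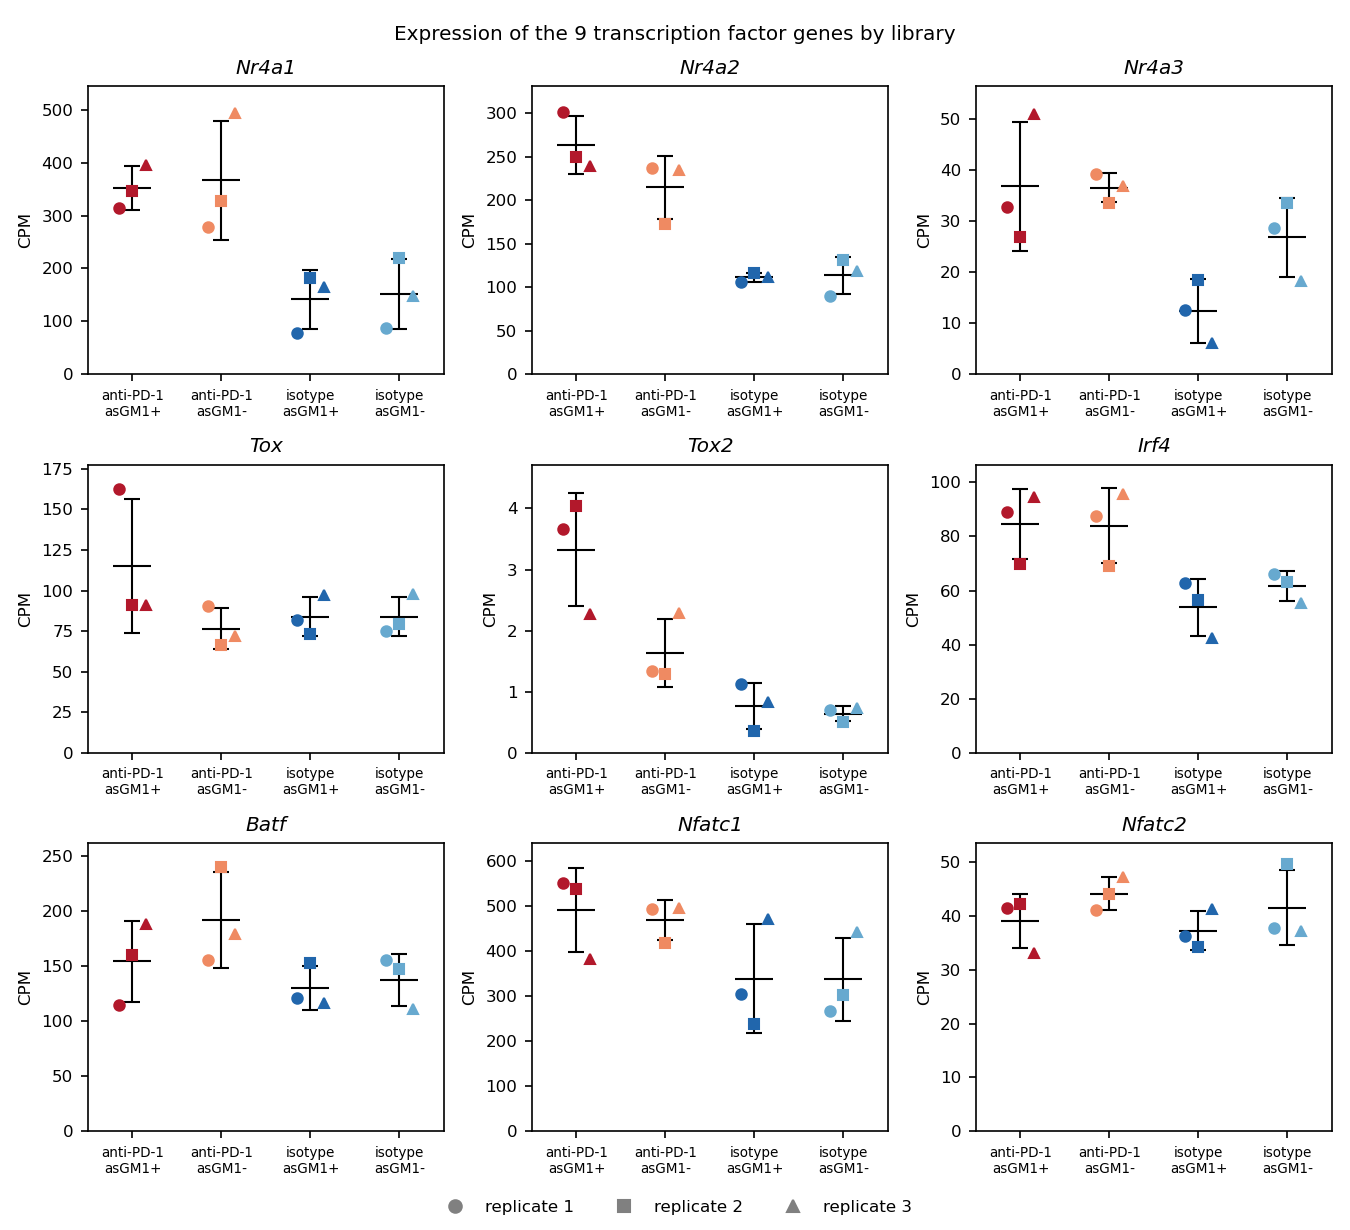
CPM of each of the 9 genes (vertical axis, from 0) in the 4 groups, with 1 point per library shaped by replicate number and the mean ± SD of 3 libraries as black lines. All 6 anti-PD-1 libraries lie above all 6 isotype libraries for Nr4a1, Nr4a2, Tox2 and Irf4.

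Nr4a1 encodes an orphan nuclear receptor (NUR77) that is induced within a short time of T cell receptor engagement. Its level was 314, 346 and 396 CPM in anti-PD-1 asGM1-positive libraries, against 77.9, 182 and 165 CPM in isotype asGM1-positive libraries. In asGM1-negative cells it was 279, 327 and 494 CPM under anti-PD-1, against 87.2, 220 and 147 CPM under isotype. In both populations every anti-PD-1 library was above every isotype library, and isotype replicate 1 was the lowest library. The log2 fold change was 1.32 ± 0.36 (SE) for the asGM1-positive population (edgeR adjusted p = 0.0482), and 1.28 ± 0.36 for the asGM1-negative population (edgeR adjusted p = 0.0468). Both calls sat close to the threshold. That in asGM1-positive cells was lost without any 1 library except isotype asGM1-negative number 1 or 2 (edgeR adjusted p = 0.0515 to 0.124), and that in asGM1-negative cells without any 1 library other than isotype asGM1-negative replicate 2 or isotype asGM1-positive replicate 1 or 2 (0.0526 to 0.179). Averaged over both populations, Nr4a1 stood at 359 ± 76.3 CPM under anti-PD-1 and 146 ± 55.0 CPM under isotype (SD, n = 6 each), a log2 fold change of 1.30 ± 0.25 (edgeR adjusted p = 0.00444).

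Nr4a2 encodes NURR1, the second receptor of the family, and had the smallest standard error of the genes that rose. It was at 302, 249 and 239 CPM in anti-PD-1 asGM1-positive libraries, against 106, 116 and 111 CPM in isotype asGM1-positive libraries. Among asGM1-negative libraries it was at 237, 173 and 235 CPM under anti-PD-1, against 89.8, 131 and 119 CPM under isotype. No anti-PD-1 library overlapped the isotype libraries. Its log2 fold changes were 1.25 ± 0.16 in the asGM1-positive population (edgeR adjusted p = 0.000808) and 0.92 ± 0.16 in asGM1-negative cells (edgeR adjusted p = 0.00495). Nr4a2 passed in both populations, and on average over them, under every alternative that was run.

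Nr4a3 encodes NOR1, the third receptor of the family. In asGM1-positive cells it was at 32.7, 26.8 and 50.9 CPM under anti-PD-1, against 12.6, 18.4 and 5.99 CPM under isotype. The asGM1-negative libraries had 39.2, 33.6 and 36.8 CPM under anti-PD-1, against 28.5, 33.4 and 18.3 CPM under isotype. The treatments were apart in asGM1-positive cells, with a log2 fold change of 1.58 ± 0.36 (edgeR adjusted p = 0.0243), and close together in asGM1-negative cells, where anti-PD-1 replicate 2 lay just above isotype replicate 2 (0.45 ± 0.36, edgeR adjusted p = 0.508). The call in asGM1-positive cells was lost when isotype asGM1-positive replicate 1 was left out (edgeR adjusted p = 0.0698), or number 1 or 3 of the anti-PD-1 asGM1-positive libraries (0.0546 and 0.0743), and in a fit of only the libraries compared (0.0823). Averaged over both populations Nr4a3 rose by 1.01 ± 0.25 on the log2 scale (edgeR adjusted p = 0.0172). That call was lost without both isotype libraries numbered 1 (edgeR adjusted p = 0.0657) or both anti-PD-1 libraries numbered 1 or 3 (0.0627 and 0.0702).

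Tox2 and Tox encode related HMG-box DNA-binding proteins of the exhaustion programme, and only Tox2 passed in any treatment comparison. Tox2 was the least abundant member, with 26 to 255 counts per library. It was at 3.67, 4.03 and 2.27 CPM in anti-PD-1 asGM1-positive libraries, against 1.12, 0.361 and 0.825 CPM in isotype asGM1-positive libraries. Its asGM1-negative levels were 1.35, 1.29 and 2.28 CPM under anti-PD-1, against 0.697, 0.495 and 0.731 CPM under isotype. Every anti-PD-1 library again lay above every isotype library. The log2 fold change was 2.12 ± 0.42 among asGM1-positive libraries (edgeR adjusted p = 0.0119), a 4.34-fold difference in the edgeR fit. It was 1.35 ± 0.42 in asGM1-negative cells (edgeR adjusted p = 0.0694). The asGM1-positive call was lost without both anti-PD-1 libraries numbered 2 (edgeR adjusted p = 0.0621) or numbered 1 (0.0614). In asGM1-negative cells Tox2 passed with DESeq2 (DESeq2 adjusted p = 0.0203) and in edgeR without isotype asGM1-positive replicate 2 (0.0340). Averaged over both populations it rose by 1.73 ± 0.30 (edgeR adjusted p = 0.00209).

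Tox was at 163, 91.3 and 91.1 CPM in anti-PD-1 asGM1-positive libraries, against 81.6, 73.2 and 97.0 CPM in isotype asGM1-positive libraries. Replicate 1 under anti-PD-1 stood apart at the top, and the other libraries overlapped. The log2 fold change was 0.45 ± 0.22 (edgeR adjusted p = 0.266). In asGM1-negative cells Tox was at 90.7, 66.5 and 71.9 CPM under anti-PD-1, against 75.0, 79.1 and 97.7 CPM under isotype, with a log2 fold change of -0.14 ± 0.22 (edgeR adjusted p = 0.777). The 95% interval of that difference was -0.61 to 0.34 on the log2 scale. A predicted antisense gene, Gm11802, overlaps an exon of Tox and had at most 16 counts in any library, and whether counting used strand is not stated.

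Nfatc1 and Nfatc2 encode the calcineurin-regulated factors NFAT2 and NFAT1. Nfatc1 was at 552, 539 and 384 CPM in anti-PD-1 asGM1-positive libraries, against 306, 239 and 473 CPM in isotype asGM1-positive libraries, and the groups overlapped. The asGM1-negative libraries had 494, 418 and 495 CPM under anti-PD-1, against 268, 302 and 442 CPM under isotype, which also overlapped. In both populations isotype replicate 3 was the highest isotype library for Nfatc1 and the lowest for Nr4a3. Nfatc1 did not pass in asGM1-positive cells (0.53 ± 0.25, edgeR adjusted p = 0.244), in asGM1-negative cells (0.48 ± 0.25, edgeR adjusted p = 0.282) or on average (0.50 ± 0.17, edgeR adjusted p = 0.0674). The averaged difference passed with DESeq2 (DESeq2 adjusted p = 0.0264) and limma voom (limma adjusted p = 0.0444). It also passed in edgeR without isotype asGM1-positive replicate 3 (0.0121), isotype asGM1-negative replicate 3 (0.0276) or anti-PD-1 asGM1-positive replicate 3 (0.0451). Without both isotype libraries numbered 3, Nfatc1 passed in asGM1-positive cells (log2 fold change 0.85, edgeR adjusted p = 0.0189) and in asGM1-negative cells (0.72, edgeR adjusted p = 0.0333).

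Nfatc2 was the steadiest member, with a ratio of 1.49 between its highest and lowest library. It was at 41.5, 42.2 and 33.2 CPM in anti-PD-1 asGM1-positive libraries, against 36.2, 34.2 and 41.3 CPM in isotype asGM1-positive libraries. Among asGM1-negative libraries it was at 41.0, 44.0 and 47.1 CPM under anti-PD-1, against 37.7, 49.6 and 37.3 CPM under isotype. All groups overlapped. The averaged log2 fold change was 0.08 ± 0.10 with a 95% interval of -0.14 to 0.29 (edgeR adjusted p = 0.655).

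Irf4 encodes a factor whose level grows with the strength of T cell receptor signalling. It was at 89.2, 70.0 and 94.8 CPM in anti-PD-1 asGM1-positive libraries, against 62.6, 56.5 and 42.3 CPM in isotype asGM1-positive libraries. Its asGM1-negative levels were 87.6, 68.9 and 95.6 CPM under anti-PD-1, against 66.1, 63.2 and 55.5 CPM under isotype. The treatments did not overlap in either population, and replicate 2 was the lowest anti-PD-1 library in both. The log2 fold change was 0.65 ± 0.17 among asGM1-positive libraries (edgeR adjusted p = 0.0403) and 0.45 ± 0.17 in asGM1-negative cells (edgeR adjusted p = 0.134). The asGM1-positive call was lost without any 1 of 7 libraries (isotype asGM1-positive 2 or 3, isotype asGM1-negative 1 or 2, anti-PD-1 asGM1-positive 1 or 3, anti-PD-1 asGM1-negative 1; edgeR adjusted p = 0.0546 to 0.133). Averaged over both populations Irf4 rose by 0.55 ± 0.12 (edgeR adjusted p = 0.00807). Without both anti-PD-1 libraries numbered 1 this did not pass (edgeR adjusted p = 0.0511).

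Batf, whose product pairs with JUN proteins and IRF4, was at 115, 159.9 and 188 CPM in anti-PD-1 asGM1-positive libraries, against 121, 153 and 116 CPM in isotype asGM1-positive libraries. These overlapped. In asGM1-negative cells the values were 156, 239.9 and 179 CPM under anti-PD-1, against 155, 147 and 111 CPM under isotype, and the lowest anti-PD-1 library lay just above the highest isotype library. Neither difference passed (0.25 ± 0.21, edgeR adjusted p = 0.571 in asGM1-positive cells, and 0.48 ± 0.21, edgeR adjusted p = 0.195 in asGM1-negative cells). Averaged over populations Batf passed without both anti-PD-1 libraries numbered 1 (edgeR adjusted p = 0.0384) and under none of the other settings. The log2 fold changes of all 9 genes in both directions of the design are plotted together.

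**Figure D2:**
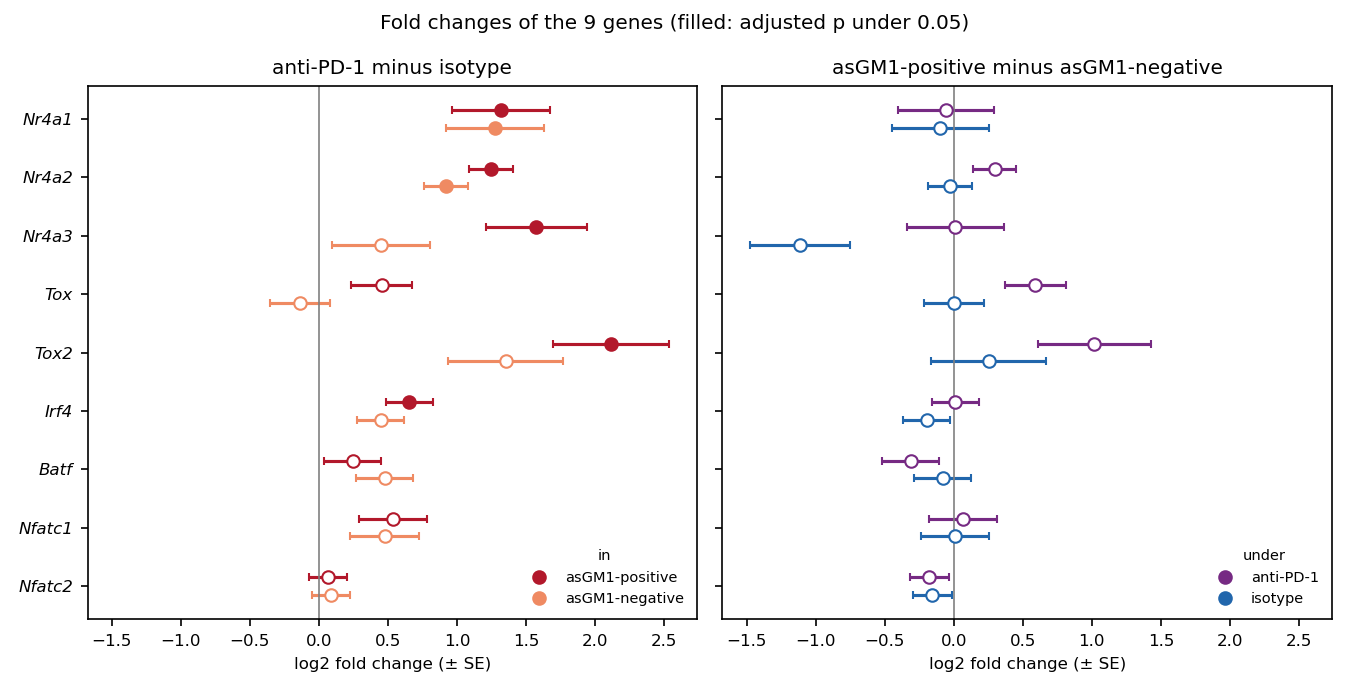
Log2 fold changes ± SE of the 9 genes for anti-PD-1 minus isotype (left) and asGM1-positive minus asGM1-negative (right), with filled points at an edgeR adjusted p under 0.05. The 7 filled points are all in the left panel, 5 for asGM1-positive cells and 2 for asGM1-negative cells.

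The averaged comparison treats 6 libraries as separate samples on each side, although same-numbered libraries of a treatment deviated together. With the counts of the 2 libraries of each number summed, leaving 3 sums against 3, Nr4a2 (log2 fold change 1.11, edgeR adjusted p = 0.00560), Tox2 (1.85, 0.0167) and Nr4a1 (1.31, 0.0450) passed. Irf4 (0.55, edgeR adjusted p = 0.0651) and Nr4a3 (0.91, 0.0787) did not. Over all genes, 673 were called higher and 621 lower in that fit. This way of summing was chosen after seeing the data.

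Some markers of CD8 T cells, of neutrophils and of other cells also differed between treatments. The sum of 8 CD8 T cell markers was 9982 to 11822 CPM in anti-PD-1 asGM1-positive libraries, against 12479 to 14039 CPM in isotype asGM1-positive libraries, and 10924 to 12734 CPM in anti-PD-1 asGM1-negative libraries, against 11658 to 12319 CPM in isotype asGM1-negative libraries. The sums overlapped in asGM1-negative cells. Of these 8 markers, 2 fell and 0 rose in asGM1-positive cells, 0 passed in asGM1-negative cells, and 1 rose and 2 fell on average. Of 4 tested neutrophil markers 3 fell on average over populations, and the sum of the 5 listed was low, at 0.321 to 2.53 CPM in anti-PD-1 libraries, against 3.40 to 8.10 CPM in isotype libraries. On average, 1 rose and 2 fell of 11 macrophage and monocyte markers, and likewise of 9 conventional dendritic cell markers. Of 10 plasmacytoid dendritic cell markers 2 fell. Of 6 tested NK cell markers 1 rose and 1 fell, and 1 of 8 tested tumour epithelium and fibroblast markers fell. The part of all these cells in the members' differences was not tested.

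RNA of the heat shock and dissociation response moved with the treatment in the same libraries. The summed level of 16 such genes was 3496 to 4253 CPM in anti-PD-1 asGM1-positive and 3623 to 4624 CPM in anti-PD-1 asGM1-negative libraries, against 4973 to 5680 CPM in isotype asGM1-positive and 4355 to 5355 CPM in isotype asGM1-negative libraries. Averaged over both populations, 3 of the 16 rose, 7 fell and 6 did not pass, beside 9.12% of all genes that rose and 9.02% that fell. Hspa1a, an inducible HSP70 chaperone gene, was at 146 and 151 CPM in the anti-PD-1 replicate 2 libraries, at 22.5 to 32.6 CPM in the other anti-PD-1 libraries and at 188 to 440.3 CPM in the isotype libraries. Without both anti-PD-1 libraries numbered 2, Nr4a1, Nr4a2, Nr4a3, Tox2 and Irf4 still passed in the averaged comparison, but Tox2 (edgeR adjusted p = 0.0621), Nr4a1 (0.148) and Nr4a3 (0.0513) did not pass in asGM1-positive cells, nor Nr4a1 in asGM1-negative cells (0.113). The anti-PD-1 libraries that remain are those with the lowest Hspa1a. The part of this response in the members' differences was not tested. Several other genes that respond at once to stimulation or handling, chosen after their values were seen, did not pass on average. They were Fos (log2 fold change -0.16, edgeR adjusted p = 0.596), Fosb (-0.25, 0.662), Jun (0.23, 0.348), Junb (-0.11, 0.544), Egr1 (0.21, 0.390), Egr2 (-0.41, 0.322) and Egr3 (-0.63, 0.0778). Chosen in this way, they are a description and no test of the part of handling. Other early genes did pass in that comparison. Of 20 genes induced early by the T cell receptor, 4 rose and 4 fell, as given below.

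Between the 2 populations, none of the 9 genes passed the test under either treatment. In asGM1-positive against asGM1-negative cells, edgeR called 0 of 9 members under anti-PD-1 (1.58% of all genes) and 0 of 9 under isotype (1.31%). At an unadjusted p under 0.05, 2 of 9 members were named under anti-PD-1 (Tox and Tox2), beside 11.3% of all genes, and 1 of 9 under isotype (Nr4a3), beside 12.5%. DESeq2, run on all genes with a count and with its own filter, called 0 of 9 under anti-PD-1, beside 845 genes. Under isotype it called 1 of 9, beside 821 genes, and limma voom called 0 of 9 under both. All 3 asGM1-positive libraries lay above the asGM1-negative ones for Tox and Nr4a2 under anti-PD-1, as for 10.2% of all genes, and under isotype the groups of all 9 members overlapped, while 16.3% of all genes had groups that did not. Same-numbered libraries of a treatment were taken as pairs because they deviated together in these data, and the labels do not state such pairs. With that pair as a block 1 member passed under each treatment, Tox under anti-PD-1 and Nr4a3 under isotype. In that fit 2.75% of all genes rose under anti-PD-1 and 2.11% fell under isotype. On average over treatments 0 of 9 passed (3.59% of all genes), and 1 of 9, Nr4a3, with the pair as a block (log2 difference -0.62, edgeR adjusted p = 0.0250), where 4.16% of all genes fell.

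Tox was higher in the asGM1-positive library of all 3 anti-PD-1 pairs, with 163 against 90.7 CPM in pair 1, 91.3 against 66.5 CPM in pair 2 and 91.1 against 71.9 CPM in pair 3. The log2 difference was 0.34 to 0.84 over these pairs, and 0.59 ± 0.22 in the fit without pairs (edgeR adjusted p = 0.292). The fit with the pair as a block gave 0.55 ± 0.10 (edgeR adjusted p = 0.0237). Under isotype the 3 pairs lay on both sides of 0, between -0.11 and 0.12, and the 95% interval of the log2 difference was -0.48 to 0.48.

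Nr4a3 was lower in the asGM1-positive library of all 3 isotype pairs, with 12.6 against 28.5 CPM in pair 1, 18.4 against 33.4 CPM in pair 2 and 5.99 against 18.3 CPM in pair 3. The log2 difference was -1.61 to -0.86 over these pairs. It was -1.12 ± 0.36 in the fit without pairs (edgeR adjusted p = 0.206; DESeq2 adjusted p = 0.0350) and -1.21 ± 0.19 with the pair as a block (edgeR adjusted p = 0.0147). Under anti-PD-1 the 3 pairs lay on both sides of 0, between -0.33 and 0.47.

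Tox2 was higher in the asGM1-positive library in pairs 1 and 2 under anti-PD-1, at 3.67 against 1.35 CPM and 4.03 against 1.29 CPM, and level in pair 3 at 2.27 against 2.28 CPM. Its log2 difference of 1.02 ± 0.41 did not pass without (edgeR adjusted p = 0.344) or with the pair as a block (0.215). Nr4a1, Nfatc1 and Irf4 differed between populations by log2 values of -0.06, 0.07 and 0.01 under anti-PD-1, with 95% intervals of -0.82 to 0.71, -0.47 to 0.61 and -0.36 to 0.38. Of 10 plasmacytoid dendritic cell markers, 6 were lower in asGM1-positive cells under anti-PD-1 and 8 under isotype by the edgeR test, with median log2 differences of -6.28 and -6.21. Of 9 conventional dendritic cell markers 2 were lower under each treatment, and of 4 tested B and plasma cell markers 1 under anti-PD-1 and 2 under isotype. Of 11 macrophage and monocyte markers 7 were higher under anti-PD-1 and 8 under isotype, and of 5 CD4 and regulatory T cell markers 2 and 1 were lower. Foxp3 of regulatory T cells was at 3.54 to 7.13 CPM in asGM1-positive and 23.0 to 59.3 CPM in asGM1-negative libraries under anti-PD-1. Under isotype Foxp3 was at 1.91 to 4.32 CPM in asGM1-positive and 16.5 to 41.9 CPM in asGM1-negative libraries. The sum of 7 NK cell markers was 184 to 469 CPM in asGM1-positive and 199 to 332 CPM in asGM1-negative libraries under anti-PD-1. Under isotype it was 320 to 533 and 237 to 401 CPM. Of 6 tested NK cell markers 0 passed under either treatment. With the pair as a block, 1 was higher in asGM1-positive cells under anti-PD-1 and 2 under isotype. The part of these cells in the differences of Tox and Nr4a3 was not tested.

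**Figure D3:**
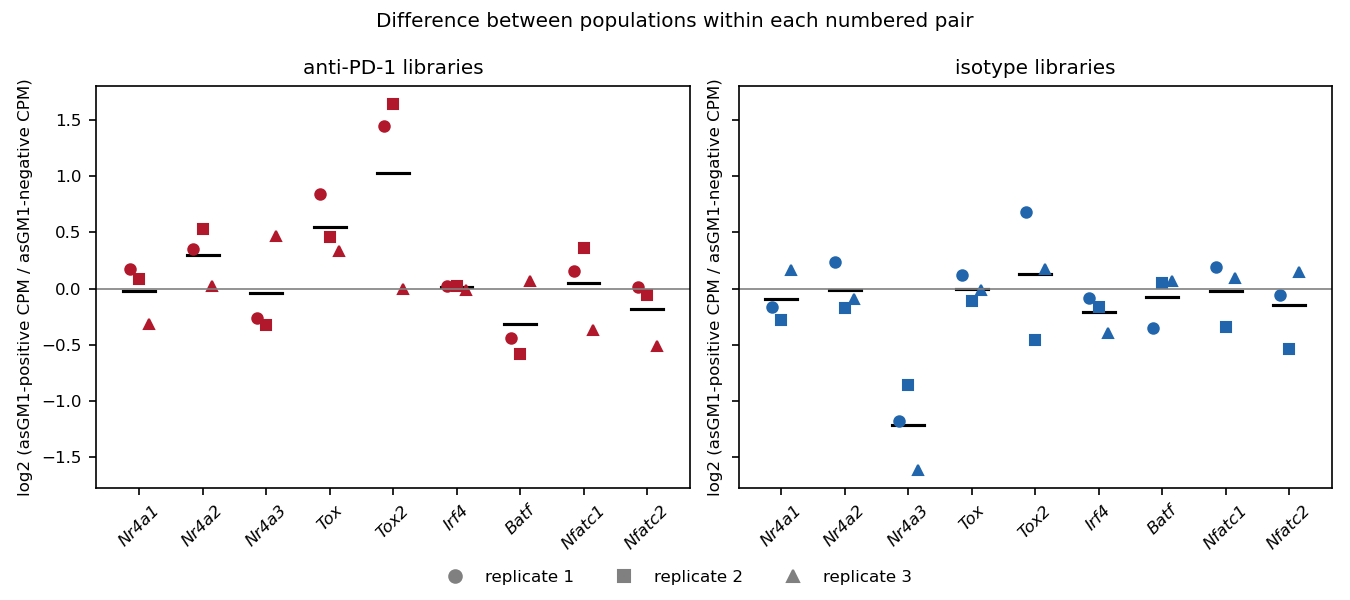
Log2 ratio of asGM1-positive over asGM1-negative CPM (vertical axis) for each of the 9 genes in the 3 same-numbered pairs under anti-PD-1 (left) and isotype (right), with 1 point per pair and the mean as a bar. Tox lies above 0 in all 3 anti-PD-1 pairs and Nr4a3 below 0 in all 3 isotype pairs.

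Whether the response to anti-PD-1 differed between populations was tested as the difference between the 2 treatment changes. None of the 9 genes passed (edgeR, 0 of 9, with 0% of all genes called, and 0 of 9 with the pair as a block, beside 0.0268%), and 1 of 9, Nr4a3, had an unadjusted p under 0.05, as did 1329 of all genes. DESeq2 and limma voom also called 0 of the 9. The change of Nr4a3 was larger in asGM1-positive cells by a log2 value of 1.13 ± 0.50 (edgeR adjusted p = 0.693), and 1.17 ± 0.26 with the pair as a block (0.106). For Tox the difference was 0.59 ± 0.31 (edgeR adjusted p = 0.777), and 0.55 ± 0.14 with the pair as a block (0.158). For Nr4a1, which had almost the same fold change in both populations, the difference was 0.04 with a 95% interval of -1.04 to 1.12. For Tox2 it was 0.76 ± 0.58 (edgeR adjusted p = 0.889) and for Irf4 0.21 ± 0.24 (0.946). The changes of Nr4a3, Tox2 and Irf4 passed the threshold in asGM1-positive and not in asGM1-negative cells, and were not shown to differ between them.

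Levels of different genes were compared as CPM per kilobase of exon, with exon lengths from GENCODE M21 on GRCm38, since the lengths of the authors' annotation were not used here. In anti-PD-1 asGM1-positive cells the order of mean levels per kilobase was Batf (109.7 ± 26.2, SD, n = 3), Nr4a1 (100.4 ± 11.8), Nfatc1 (65.8 ± 12.5), Nr4a2 (64.9 ± 8.27), Irf4 (17.3 ± 2.66), Tox (15.1 ± 5.42), Nr4a3 (6.14 ± 2.11), Nfatc2 (3.68 ± 0.475) and Tox2 (0.978 ± 0.273). The neighbours whose ranges overlapped were Batf with Nr4a1, Nfatc1 with Nr4a2, and Irf4 with Tox. In both isotype groups Batf was also first and Tox2 last, but Nfatc1 (45.4 ± 16.1 in asGM1-positive and 45.2 ± 12.3 in asGM1-negative cells) had a higher mean per kilobase than Nr4a1 (40.3 ± 15.9 and 43.1 ± 18.9), with overlapping ranges. Nr4a3 stood below Nfatc2 in isotype asGM1-positive cells, at 2.06 ± 1.04 and 3.52 ± 0.348 CPM per kilobase, and these ranges did not overlap. In the other 3 groups its mean was above that of Nfatc2.

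**Figure D4:**
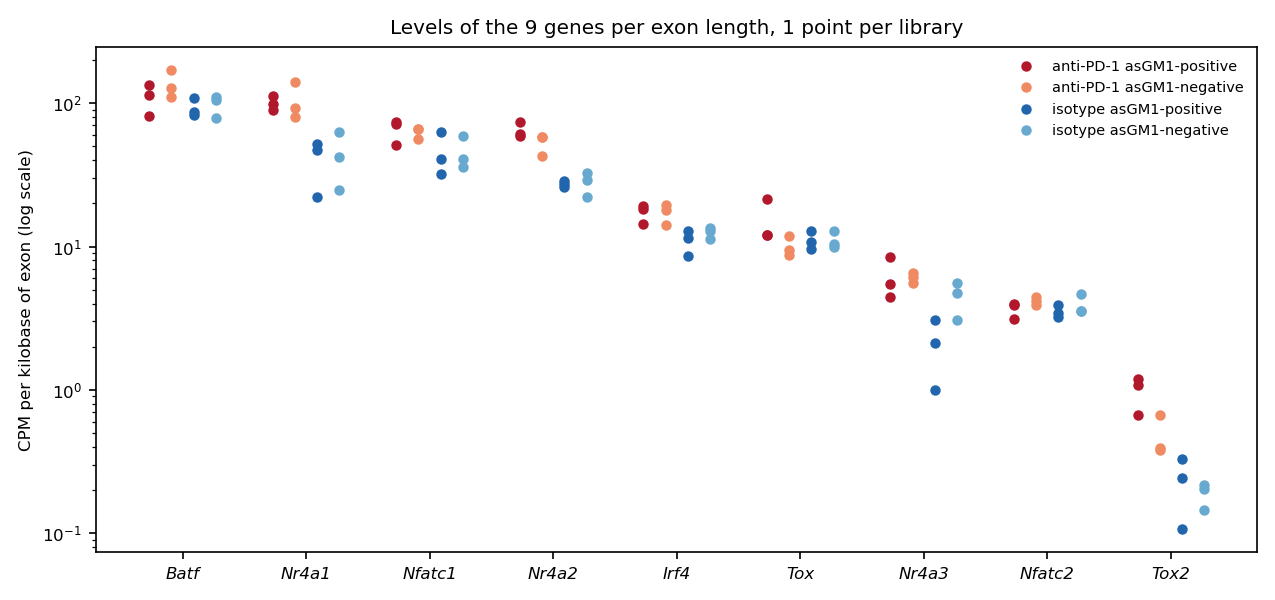
CPM per kilobase of exon (log scale) for the 9 genes in the order of their mean in anti-PD-1 asGM1-positive cells, with 1 point per library coloured by group. Batf, Nr4a1, Nfatc1 and Nr4a2 form the upper range and Tox2 lies lowest in every group.

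Close relatives of these factors were also measured. Of 10 listed TOX, NFAT, IRF and BATF relatives, 8 were tested in the average over populations, where 1 rose, 1 fell and 6 did not pass, beside 9.12% of all genes that rose and 9.02% that fell. Nfatc3, which encodes another calcineurin-regulated NFAT, rose to 167 ± 17.5 CPM under anti-PD-1, against 105 ± 15.6 CPM under isotype (SD, n = 6 each; log2 fold change 0.67 ± 0.10, edgeR adjusted p = 0.00106). Batf3, a BATF relative known from cross-presenting dendritic cells, fell to 0.630 ± 0.0896 CPM under anti-PD-1, against 1.80 ± 0.476 CPM under isotype (-1.51 ± 0.22, edgeR adjusted p = 0.000714).

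Of 30 genes of the calcium and calcineurin pathway that activates NFAT, 28 were tested on average over populations, where 6 rose, 2 fell and 20 did not pass, with a median log2 fold change of 0.08. Of all genes tested, 9.12% rose and 9.02% fell in that comparison. Camk4, a calmodulin-dependent kinase, rose to 198 ± 10.7 CPM under anti-PD-1, against 129 ± 6.40 CPM under isotype (0.61 ± 0.06, edgeR adjusted p = 5.13e-05). Itpr1, a calcium release channel of the endoplasmic reticulum, rose by 0.78 ± 0.13 (edgeR adjusted p = 0.00201) and Plcg1, the phospholipase below the T cell receptor, by 0.40 ± 0.06 (0.00110). Between populations, 0 of 28 passed under either treatment and 1 on average, Orai1, a calcium channel subunit of the plasma membrane, which was lower in asGM1-positive cells (129 ± 10.3 CPM, against 159 ± 12.4 CPM in asGM1-negative cells, SD, n = 6 each; -0.30 ± 0.07, edgeR adjusted p = 0.0342). The Orai1 call was lost in 15 of 25 alternatives, with an edgeR adjusted p of up to 0.164. Of all genes, 3.59% passed on average in that fit. With the pair as a block, 1 of 28 passed under anti-PD-1, 2 under isotype and 5 on average (2 higher and 3 lower). The block called 891, 736 and 1604 of all genes in the same order.

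Among 13 AP-1 and BACH partner genes, all tested, 1 rose on average under anti-PD-1, 0 fell and 12 did not pass, beside 9.12% of all genes that rose and 9.02% that fell. The gene that rose was Mafg, a small MAF protein gene, which rose by 0.26 ± 0.07 (edgeR adjusted p = 0.0294) and was lost without any 1 of 8 of the 12 libraries (0.0524 to 0.0807). Bach2, which restrains AP-1 driven effector genes, was the 1 gene of this list called between populations in the fit without pairs, at 9.43 ± 4.87 CPM in asGM1-positive and 21.4 ± 2.22 CPM in asGM1-negative cells over both treatments (SD, n = 6 each; -1.29 ± 0.24, edgeR adjusted p = 0.0132). Its call was lost without both isotype libraries numbered 1 (edgeR adjusted p = 0.0620) or both anti-PD-1 libraries numbered 1 or 3 (0.0566 and 0.0824). A fit with pairs as blocks called 2 of the 13 lower in asGM1-positive cells under anti-PD-1, 1 under isotype and 2 on average. Of all genes it called 377, 394 and 777 lower in the same order.

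Of 20 genes induced early by the T cell receptor, all tested, 4 rose, 4 fell and 12 did not pass on average under anti-PD-1, with a median log2 fold change of -0.10. Of all genes tested, 9.12% rose and 9.02% fell. Dusp5, a phosphatase of ERK, stood at 782 CPM under anti-PD-1 and 323 CPM under isotype (1.28 ± 0.12, edgeR adjusted p = 3.73e-05), and Tnfaip3, an inhibitor of NF-kappaB, rose by 1.25 ± 0.14. Xcl1, a chemokine of activated CD8+ T cells, fell to 10.4 CPM under anti-PD-1, against 124 CPM under isotype (-3.65 ± 0.22), and Cish, a feedback inhibitor of cytokine signalling, fell by 1.16. Of 11 inhibitory receptors, all tested, 7 rose, 1 fell and 3 did not pass, beside the same shares of all genes. Ctla4 rose by 1.42 ± 0.19 (edgeR adjusted p = 0.000403), Havcr2 (TIM-3) stood at 997 CPM under anti-PD-1 and 501 CPM under isotype (2.12e-05) and Pdcd1 (PD-1) rose by 0.47 ± 0.08 (0.00148), while Cd244a (2B4) fell by 1.24 on the log2 scale (7.28e-06).

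Genes whose log2 CPM over the 12 libraries was most like that of each member were found among the 8801 other genes whose mean log2 CPM reached 3. The libraries are shared by both genes of a pair and include same-numbered pairs, so the correlations are descriptions. They also include the differences between group means, and each gene was picked for its high r. The highest Pearson r was 0.95 for Nr4a1 (with Klhl21), 0.97 for Nr4a2 (Hsdl2), 0.95 for Nr4a3 (Stk24), 0.90 for Tox (Rad18), 0.98 for Tox2 (Themis2), 0.97 for Nfatc1 (Sec24c), 0.82 for Nfatc2 (Pkd1), 0.94 for Irf4 (D16Ertd472e) and 0.95 for Batf (Map1lc3a). Next after these came Ppp1r15a and Klhl17 for Nr4a1, Oxsr1 and Patz1 for Nr4a2, Cir1 and Igf2r for Nr4a3, Dtl and Stk39 for Tox, and Mmd and Gpr65 for Tox2. For Nfatc1 they were Tm9sf3 and Sacm1l, for Nfatc2 Numa1 and Rptor, for Irf4 Zfp729a and Arl14ep, and for Batf Thap3 and Klrd1. With group means taken out, r with the most alike gene was 0.85 for Nr4a1, 0.79 for Nr4a2, 0.92 for Nr4a3, 0.84 for Tox and 0.85 for Tox2. It was 0.97 for Nfatc1, 0.77 for Nfatc2, 0.79 for Irf4 and 0.97 for Batf.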

How the data were processed

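The authors deposited whole-number counts per gene for 12 libraries, with replicates kept apart. HISAT2, StringTie and build mm39 are named, per the submitters' processing notes. Versions, settings, annotation, strand use and treatment of reads with several matches are not given in the sources used here, nor is it stated whether counts were tallied from reads or derived from StringTie coverage. RNA was taken with TRIzol, and SMARTer ultra-low-input and TruSeq kits were named, per the labels' protocols.

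The main test was the quasi-likelihood F test of edgeR 4.0.16 (limma 3.58.1, R 4.3.3). A single fit held all 12 libraries and 1 mean for each group, with the filterByExpr filter and TMM scaling (factors 0.970 to 1.04). Residual degrees of freedom were 8, prior degrees of freedom 3.71 (median) and the common biological coefficient of variation 0.336. The threshold was an adjusted p (Benjamini-Hochberg, over all 18657 genes tested) under 0.05. Each standard error is a log2 fold change over the square root of its F. Before filtering, 310 genes had an ID and no symbol (0.0387 to 0.0547% of counts), and none was removed for that. Replicates differed by more than counting error, with chi-square values of 41.4 to 115 for each degree of freedom. The totals of 58.1 to 73.2 M counts give 26 counts in 1 library for Tox2, the lowest member, and at least 392 for every other.

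Deviations from group means correlated at 0.121 to 0.298 between same-numbered libraries of a treatment in all 6 pairs, at -0.192 to 0.026 between other libraries of a treatment and at -0.118 to 0.0497 between same numbers across treatments. The number was therefore used as a pair within a treatment.

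The text names all 9 members and the 3 most correlated genes per member, leaving out predicted genes. From each pathway list described above it names at most 4 passing genes by smallest p. Passing early and inhibitory receptor genes between populations are not named. Other lists were tested and not described. On average, of 15 stem-like and naive genes 9 rose and 1 fell under anti-PD-1, and 11 were lower in asGM1-positive cells. Of 13 other exhaustion and effector regulators 5 rose and 2 fell, and 1 was higher and 2 lower. Members and lists were chosen with earlier results of these data known. Alternatives were DESeq2 1.42.0, limma voom, other scalings, no filter, blocks and left-out libraries. The fit was tested on simulated data.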

Additional observations from a re-analysis of the deposited data

How the results depend on the processing

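Over 63 member results (9 genes in 7 comparisons) and up to 27 alternatives, 6 of them chosen after seeing the data, there were 1593 recomputed values. Of these 1516 kept direction and side of the threshold, 62 lost a call, 15 gained one and 0 changed sign with a call. In asGM1-positive cells, where 5 members passed under anti-PD-1, 3 passed without the filter and 3 in a fit of only the libraries compared. Leaving out both isotype libraries numbered 1 gave 2, both anti-PD-1 libraries numbered 2 or 3 gave 2 each, both anti-PD-1 libraries numbered 1 gave 1, and leaving out 1 library 2 to 4. In asGM1-negative cells the 2 passing members became 1 under each of these settings, and 1 to 3 without 1 library. On average over populations the 5 became 3 with same-numbered libraries summed, 4 to 6 with both libraries of a number and treatment left out, and 5 to 6 without 1 library. Between populations, where 0 passed, the pair as a replicate block gave 1 under anti-PD-1, 1 under isotype and 1 on average, DESeq2 gave 1 under isotype, and leaving out 1 library gave 0 throughout, as for the difference between responses. The block could not be fitted to treatment comparisons, since each pair lies within 1 treatment. Treating the replicate number as 1 block across treatments left every count of members as it was.

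Counts of all genes called moved more. Those of DESeq2 come from its own filter and not from the 18657 genes tested in edgeR. With DESeq2, the pair as a block and both anti-PD-1 libraries numbered 2 left out, 845, 891 and 16 genes were called between populations under anti-PD-1, against 295, and 1456, 1604 and 280 on average, against 670. Under isotype 821 (DESeq2), 736 (block) and 93 (only the libraries compared) were called, against 244. Between treatments 2280 (DESeq2), 677 (only the libraries compared) and 604 (both anti-PD-1 libraries numbered 2 left out) were called in asGM1-positive cells, against 1255, and 2753 (DESeq2) and 791 (those 2 libraries left out) in asGM1-negative cells, against 1598. On average 2108 (those 2 libraries left out) and 1294 (summed) were called, against 3384. Without 1 library the counts were 49 to 354, 75 to 230 and 407 to 781 between populations (anti-PD-1, isotype, average) and 674 to 1252, 730 to 1737 and 2428 to 3451 between treatments (asGM1-positive, asGM1-negative, average). For the difference between responses, DESeq2 called 138 genes and the block 5, against 0. The causes were not tested. With 3 libraries a group, the 95% intervals of the log2 change in asGM1-positive cells were 1.19 to 3.04 for Tox2, whose 26 to 255 counts add counting error, and -0.24 to 0.37 for Nfatc2.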
